A study of Mus musculus with 12 samples.

Results

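Fatty acid desaturases and elongases decide how long and how unsaturated the fatty acids of a liver are. Members were the rows of the deposited expression table whose symbol was one of 9 names, namely the desaturases Scd1, Scd2, Fads1 and Fads2 and the elongases Elovl1, Elovl2, Elovl3, Elovl5 and Elovl6. All 9 were found among the 23991 genes of the table, and for each gene the transcript row with the highest mean over 12 libraries was used. Liver polyA RNA came from male C57/Bl6J mice in 3 groups of 4 libraries. HFD+ASBTi mice ate a fat-rich diet that held 0.2% cholesterol and 0.006% SC-435, a drug that blocks ASBT, the ileal transporter which returns bile acids from the gut. HFD mice ate the same high-fat diet (HFD) without the drug, and chow mice ate chow. Mice were put on the diets when 4 weeks old and stayed on them for 16 weeks. The labels do not say that each library is a different animal, so p-values measure the spread between these libraries only.

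As background, desaturases place double bonds in fatty acyl chains in the endoplasmic reticulum, using electrons passed on by cytochrome b5, and elongases catalyse the first step of the cycle that lengthens the chain. Stearoyl-CoA desaturases turn the saturated chains made by fatty acid synthase into oleate and palmitoleate, which go into triglycerides and cholesteryl esters. Fads2 and Fads1 act in turn on the essential fatty acids linoleate and alpha-linolenate, with elongation by Elovl5 and Elovl2 between and after them, to give arachidonate, eicosapentaenoate and docosahexaenoate. In liver many of these genes are known targets of SREBP-1c, the product of Srebf1, and of the nuclear receptors LXR and PPARalpha.

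The libraries held an estimated 8970000 to 11300000 reads in HFD+ASBTi, 10340000 to 13250000 in HFD and 10640000 to 11360000 in chow, worked out from the smallest steps of the deposited values. The liver identity was plain, since all 8 hepatocyte markers were above 0 in every library and summed to between 3090 and 4915 RPKM. Values are RPKM, reads scaled to transcript length and to library total. The kilobases behind them were the genomic span of a transcript with its introns, so RPKM serves to compare 1 gene between libraries but not different genes. A few libraries stood apart in genes of the daily clock. Arntl, a core activator of the clock that peaks once a day in liver, was at 3.08, 3.82, 0.669 and 0.543 RPM (reads scaled to library total alone) in HFD+ASBTi libraries 1 to 4. It was at 0.381, 1.07, 0.663 and 0.377 RPM in HFD libraries 1 to 4 and at 1.75, 1.31, 6.25 and 2.03 RPM in chow libraries 1, 2, C7 and 4. HFD+ASBTi 1 and 2 were thus above every HFD library, and chow C7 was the highest of all 12. These libraries recur in the results on Scd1, Elovl3 and Elovl6.

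Compared per spliced length, the family was dominated by Scd1. Its level averaged 582 ± 364 RPM per spliced kilobase in HFD+ASBTi, 1181 ± 608 in HFD and 472 ± 145 in chow (SD, n = 4 each). Scd1 made up 41.6% to 73.0% of the summed level of the 9 members in HFD+ASBTi libraries, 60.7% to 77.4% in HFD libraries and 50.4% to 72.4% in chow libraries. On the same scale Fads1 came second, with 95.9 in HFD+ASBTi, 112 in HFD and 52.2 in chow. Elovl5 followed with 82.6 in HFD+ASBTi, 101 in HFD and 42.3 in chow, and Elovl2 with 76.0 in HFD+ASBTi, 95.3 in HFD and 51.2 in chow. Fads2 stood at 46.0 in HFD+ASBTi, 65.2 in HFD and 15.7 in chow, and Elovl3 at 36.9 in HFD+ASBTi, 14.9 in HFD and 48.3 in chow. Elovl1, Elovl6 and Scd2 were the lowest members in each group, with Scd2 last at 0.773 in HFD+ASBTi, 1.55 in HFD and 0.722 in chow.

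The order of levels was only partly resolved by the spread between libraries. Scd1 was above the next member in every library of all 3 groups. From Fads1 down to Elovl3 in HFD+ASBTi, from Fads1 to Fads2 in HFD and from Fads1 to Elovl5 in chow, neighbouring members overlapped. So did Elovl1 and Elovl6 in HFD+ASBTi and in HFD, and Elovl3 and Elovl1 in HFD. In chow the means of Elovl2 and Elovl3 were above that of Elovl5. Scd2 did not overlap with Elovl6 above it in any group. Spliced lengths are those of the GENCODE vM21 transcripts, and this scale is an estimate. The genomic span behind the RPKM was 2.02 times (Elovl3) to 24.1 times (Elovl5) the spliced length. All reads of the span were assigned to the spliced length, and how many came from introns is not known. Any intron reads would raise members with long introns, such as Elovl5, in this order and in the shares of the summed level.

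**Figure D1:**
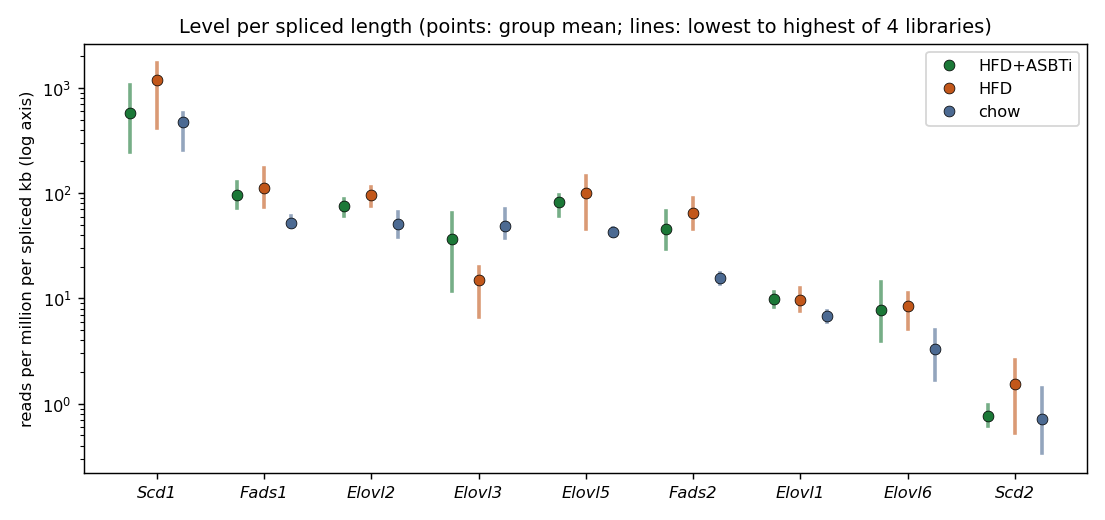
Level of each member in RPM per spliced kilobase (log axis) in HFD+ASBTi, HFD and chow, ordered by the chow mean; points are group means and lines run over the 4 libraries. Scd1 lies above the other members in all 3 groups, and Elovl3 is the member with its lowest mean in HFD (14.9).

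In HFD livers, RNA of both enzymes that desaturate essential fatty acids and of the elongase Elovl2 was higher than in chow livers. Tests were run with limma on log2(RPKM + 0.5) over the 6325 genes with at least 0.5 RPKM in at least 4 libraries, with Benjamini-Hochberg adjustment over all of them and a threshold of 0.05, two-sided. Of the 9 members, 8 passed that filter and Elovl6 did not. In HFD against chow 3 members rose (Fads1, Fads2 and Elovl2) and 0 fell, while 7.65% of all tested genes were called higher and 4.46% lower, 12.1% in all. The median log2 fold change of the 8 tested members was 0.89, and that of all tested genes was 0.02. An unadjusted p under 0.05 was reached by all 8 tested members and by 28.7% of all tested genes. Scd2 passed the filter in only 4 libraries, 3 of them HFD. Red blood cell markers separated the same groups. The 4 markers summed to 84.4 to 167 RPKM in HFD+ASBTi and 95.1 to 172 RPKM in HFD, against 17.1 to 79.1 RPKM in chow, without overlap, with Slc4a1 at 0 in HFD 1 and 3 and chow 1 and 2. Of the 3 tested, 2 were called higher in HFD and in HFD+ASBTi against chow. The macrophage marker Cd68 was also called higher in both, 1 of 5 tested, while the summed 8 macrophage markers overlapped at 15.6 to 24.6 RPKM in HFD+ASBTi, 15.5 to 19.0 RPKM in HFD and 10.02 to 22.3 RPKM in chow. Among 8 hepatocyte markers, 2 were called lower in each of these comparisons. The part of these cells in the members' values was not tested.

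**Figure D2:**
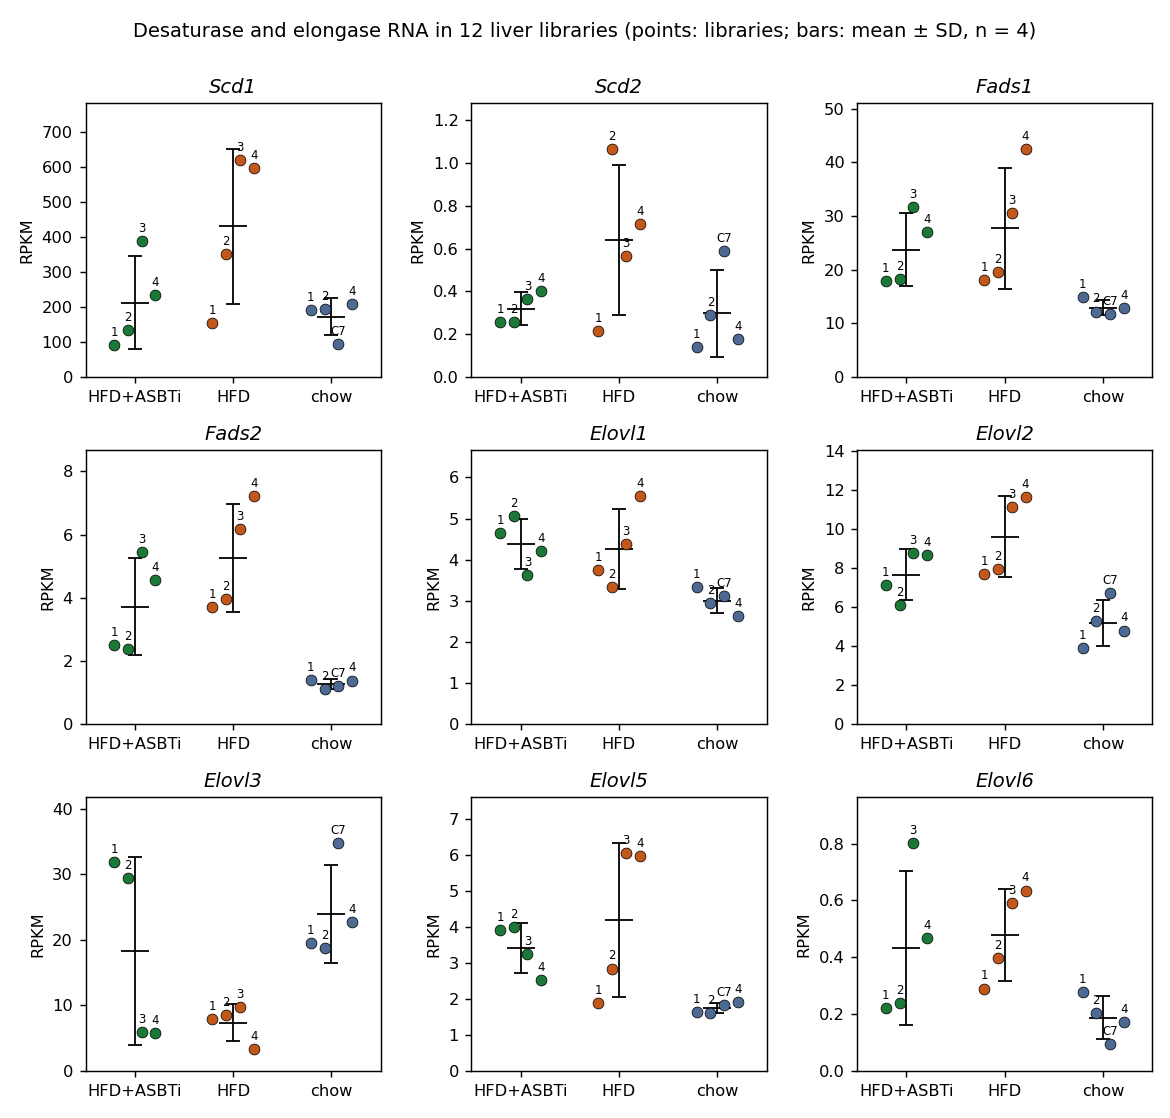
RPKM of each member in every library, with HFD+ASBTi on the left, HFD in the middle and chow on the right; numbers name the libraries and bars give the mean ± SD of 4. Fads2 shows HFD+ASBTi (2.36 to 5.45) and HFD (3.72 to 7.22) above all chow libraries (1.10 to 1.40), and Elovl3 shows HFD+ASBTi 1 and 2 apart from 3 and 4.

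Fads2 (NM_019699 in the table), which takes the first desaturation step on linoleate and alpha-linolenate, had the largest rise among the members. It was at 3.72, 3.96, 6.17 and 7.22 RPKM in HFD libraries 1 to 4 and at 1.40, 1.10, 1.19 and 1.37 RPKM in chow libraries 1, 2, C7 and 4. The lowest HFD library was above the highest chow library, and the chow libraries lay close together. The mean was 4.16-fold higher in HFD (5.27 ± 1.71 RPKM) than in chow (1.27 ± 0.147 RPKM), a log2 fold change of 1.66 (SE 0.26, 95% confidence interval 1.09 to 2.23, limma adjusted p = 0.00306). The call held with each of the 12 libraries left out in turn (adjusted p 0.00199 to 0.0131).

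In HFD+ASBTi livers Fads2 was also above chow. Its values were 2.49, 2.36, 5.45 and 4.56 RPKM in HFD+ASBTi libraries 1 to 4, all above the 4 chow values. Libraries 1 and 2 lay below all 4 HFD libraries, and libraries 3 and 4 lay within the HFD range. The mean of 3.72 ± 1.54 RPKM in HFD+ASBTi was 2.94-fold that in chow (log2 fold change 1.19, 95% confidence interval 0.62 to 1.75, limma adjusted p = 0.0230). Fads2 was the 1 of 8 tested members called in HFD+ASBTi against chow, a comparison in which 4.74% of all tested genes were called higher, 2.31% lower and 7.05% in either direction. An unadjusted p under 0.05 was reached there by 5 of the 8 tested members and by 23.3% of all tested genes. The call ended without chow 1, 2 or C7 (adjusted p up to 0.0669) and with no filter on low values (0.0564). HFD and HFD+ASBTi were both set against the same 4 chow libraries.

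The promoter of Fads2 is shown because it belongs to the member with the largest rise, and those of Elovl2 and Elovl5 because they belong to the other steps of the same pathway. Each is the stretch of 250 bases before the transcript start in RefSeq (GRCm38.p6), written 5′ to 3′ on the gene's strand, and such windows were found for 5 of the 9 members. Capitals mark CCAAT and the E-box CACGTG on either strand. The Fads2 window is chr19:10101504-10101753 (minus strand), the Elovl2 window is chr13:41220404-41220653 (minus strand) and the Elovl5 window is chr9:77917115-77917364 (plus strand).
Fads2: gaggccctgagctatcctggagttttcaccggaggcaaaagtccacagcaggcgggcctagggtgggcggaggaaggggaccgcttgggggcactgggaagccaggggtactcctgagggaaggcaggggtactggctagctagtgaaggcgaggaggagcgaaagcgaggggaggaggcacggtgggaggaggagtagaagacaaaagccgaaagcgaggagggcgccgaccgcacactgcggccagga
Elovl2: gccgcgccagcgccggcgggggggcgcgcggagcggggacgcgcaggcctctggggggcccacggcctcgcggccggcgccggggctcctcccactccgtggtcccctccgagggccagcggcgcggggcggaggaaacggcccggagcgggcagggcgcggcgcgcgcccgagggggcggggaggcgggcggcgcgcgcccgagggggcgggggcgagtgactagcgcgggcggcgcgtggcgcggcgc
Elovl5: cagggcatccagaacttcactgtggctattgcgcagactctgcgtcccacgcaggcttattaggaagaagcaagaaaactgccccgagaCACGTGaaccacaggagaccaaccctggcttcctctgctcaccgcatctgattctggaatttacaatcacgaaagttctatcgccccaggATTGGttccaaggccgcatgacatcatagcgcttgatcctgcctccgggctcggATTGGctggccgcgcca

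The Elovl5 window holds 1 E-box, 161 bases before the start, and CCAAT on the reverse strand at 71 and 17 bases before it. An E-box of these letters was found in 6.02% of 32851 windows of the same length, and CCAAT in 33.8%. The Fads2 and Elovl2 windows hold neither. They hold the GC-box letters GGGCGG, found in 32.7% of windows on either strand, once for Fads2 and 5 times for Elovl2. RefSeq gives another Elovl2 start downstream, whose window (chr13:41220163-41220412) holds 0 of them. Matches to letters are a description of the sequence and not evidence of binding.

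Fads1 (NM_146094), which acts after Fads2 and makes arachidonate and eicosapentaenoate, was at 18.1, 19.6, 30.6 and 42.5 RPKM in HFD libraries 1 to 4. In chow libraries 1, 2, C7 and 4 it was at 14.9, 12.2, 11.7 and 12.9 RPKM. The groups did not overlap, although HFD 1 and 2 lay much nearer to chow than HFD 3 and 4 did. The mean was 2.14-fold higher in HFD (27.7 ± 11.3 RPKM) than in chow (12.9 ± 1.42 RPKM), with a log2 fold change of 0.99 (SE 0.27, 95% confidence interval 0.40 to 1.58, limma adjusted p = 0.0351). The call ended without HFD 3, HFD 4 or any 1 chow library (adjusted p up to 0.0919) and with no filter on low values (0.0746). In HFD+ASBTi, Fads1 was at 17.8, 18.2, 31.7 and 27.1 RPKM, above all chow libraries, and the test against chow was not passed (log2 fold change 0.81, 95% confidence interval 0.23 to 1.40, limma adjusted p = 0.0947), except without HFD 4 (0.0467).

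Fads1 and Fads2 lie side by side on chromosome 19, and their RNA did not keep a fixed ratio. The RPKM of Fads2 divided by that of Fads1 was 0.129 to 0.172 in HFD+ASBTi, 0.170 to 0.205 in HFD and 0.0900 to 0.106 in chow. All HFD+ASBTi and HFD ratios were above all chow ratios. No 36-base word was shared between the Fads1 and Fads2 transcripts of GENCODE vM21.

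Elovl2 (NM_019423), which elongates long polyunsaturated chains on the way to docosahexaenoate, was at 7.69, 7.96, 11.2 and 11.7 RPKM in HFD libraries 1 to 4. It was at 3.87, 5.30, 6.70 and 4.80 RPKM in chow libraries 1, 2, C7 and 4, all of them lower than the lowest HFD library. The mean was 1.86-fold higher in HFD (9.62 ± 2.09 RPKM) than in chow (5.17 ± 1.18 RPKM), with a log2 fold change of 0.84 (SE 0.18, 95% confidence interval 0.43 to 1.24, limma adjusted p = 0.0148). This call held with each library left out in turn (adjusted p 0.0129 to 0.0466). In HFD+ASBTi, Elovl2 was at 7.14, 6.10, 8.79 and 8.66 RPKM. Library 2 lay within the chow range, and the test against chow was not passed (log2 fold change 0.54, 95% confidence interval 0.13 to 0.94, limma adjusted p = 0.108).

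Elovl5 (NM_134255), which elongates the products of Fads2, varied 3.19-fold between HFD libraries. It was at 1.90, 2.85, 6.07 and 5.98 RPKM in HFD libraries 1 to 4 and at 1.64, 1.61, 1.84 and 1.92 RPKM in chow libraries 1, 2, C7 and 4. HFD 1 lay within the chow range and HFD 3 and 4 far above it. The log2 fold change was 0.94 (95% confidence interval 0.30 to 1.57, limma adjusted p = 0.0559) and was not called. Without HFD 1 it was called (adjusted p = 0.0102). On the RPM scale, where the 0.5 added to each value weighs less on genes with long introns, it was also called (adjusted p = 0.0327). In HFD+ASBTi, Elovl5 was at 3.92, 4.00, 3.25 and 2.52 RPKM, above all chow libraries (log2 fold change 0.78, 95% confidence interval 0.15 to 1.42, limma adjusted p = 0.129). Counted over the groups, 4 HFD+ASBTi libraries and 3 HFD libraries exceeded every chow library.

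**Figure D3:**
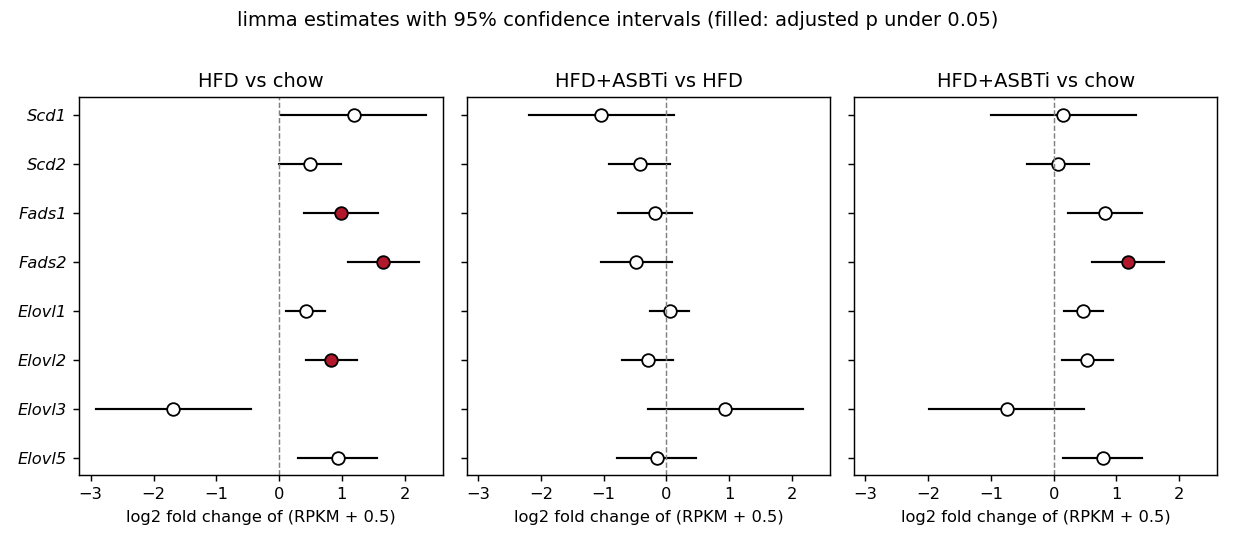
Log2 fold changes of RPKM + 0.5 with 95% confidence intervals for the 8 tested members in the 3 comparisons; filled points passed the adjusted threshold of 0.05. Filled points are Fads1, Fads2 and Elovl2 in HFD against chow and Fads2 in HFD+ASBTi against chow, and there are 0 in HFD+ASBTi against HFD.

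Scd1 (NM_009127), which makes oleate and palmitoleate, was the most abundant member and varied 4.06-fold between HFD libraries. It was at 153, 351, 621 and 597 RPKM in HFD libraries 1 to 4 and at 193, 193, 93.6 and 208 RPKM in chow libraries 1, 2, C7 and 4. HFD 2, 3 and 4 were above all chow libraries, and HFD 1 was below 3 of them. The mean was 2.50-fold higher in HFD (431 ± 222 RPKM) than in chow (172 ± 52.7 RPKM), but with a log2 fold change of 1.19 (95% confidence interval 0.04 to 2.35) it was not called (limma adjusted p = 0.163). Without chow C7 it was 0.92 (limma adjusted p = 0.325). In HFD+ASBTi, Scd1 was at 90.1, 135, 390 and 234 RPKM, so that libraries 1 and 2 were below HFD 1 and library 3 was above HFD 2. The mean of 212 ± 133 RPKM in HFD+ASBTi was 1.23-fold that in chow (log2 fold change 0.15, 95% confidence interval -1.002 to 1.31, limma adjusted p = 0.892). That small difference turned negative without HFD+ASBTi 3 (-0.21) or without chow C7 (-0.12), and was 0.88 without HFD+ASBTi 1 and 2.

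The 4 mouse Scd genes lie together on chromosome 19 and are close copies, so reads may be shared out among them in a way the sources used here do not describe. The stretch of coding sequence that starts at the first histidine box of the enzyme shows how close they are. It is taken from GENCODE vM21 transcripts, with bases that differ from Scd1 in capitals.
Scd1: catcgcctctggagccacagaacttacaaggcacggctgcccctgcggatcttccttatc
Scd2: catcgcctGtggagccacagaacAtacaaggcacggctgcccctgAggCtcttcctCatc
Scd3: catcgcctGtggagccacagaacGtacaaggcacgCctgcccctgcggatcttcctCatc
Scd4: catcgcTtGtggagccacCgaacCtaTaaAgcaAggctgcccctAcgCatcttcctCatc

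Over these 60 bases Scd2 was 91.7% identical to Scd1, Scd3 was 93.3% and Scd4 was 83.3%. Over whole transcripts, 4.53% of the 36-base words of Scd1 were also in Scd2, 5.09% in Scd3 and 2.94% in Scd4. Scd4 was at 0.0973 to 0.790 RPKM in HFD+ASBTi, 0.284 to 1.17 in HFD and 0.230 to 0.413 in chow. It followed Scd1 over the libraries more closely than all but 2 of the other tested genes, and whether its reads come from Scd1 RNA was not tested.

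Scd2 (NM_009128), the stearoyl-CoA desaturase best known from brain and from newborn tissues, was close to the floor in these livers. Its RPKM was 0.255, 0.256, 0.364 and 0.404 in HFD+ASBTi libraries 1 to 4, 0.217, 1.07, 0.566 and 0.716 in HFD libraries 1 to 4, and 0.140, 0.291, 0.588 and 0.175 in chow libraries 1, 2, C7 and 4. These values stand for an estimated 20 to 145 reads per library, with all 3 groups overlapping. The log2 fold change was 0.49 in HFD against chow (95% confidence interval 0.00 to 0.98, limma adjusted p = 0.174, called without HFD 1 at 0.0407) and 0.06 in HFD+ASBTi against chow (-0.43 to 0.56, limma adjusted p = 0.893). The highest values of the HFD and chow groups came from HFD 2 and chow C7. Adipoq, which marks fat cells, was at 0.161 RPKM in HFD 2 and 0.0847 RPKM in chow C7, and at 0 to 0.0145 RPKM in the other 10 libraries. HFD 2 was also the 1 library in which all 8 fat cell markers were above 0, while Lep and Retn were at 0 in the other 11. The summed RPKM of the fat cell markers was 4.74 to 9.32 in HFD+ASBTi, 4.27 to 12.8 in HFD and 1.69 to 3.66 in chow. This sum did not track Adipoq in every library. It was 12.8 in HFD 3, with Lep, Retn and Plin1 at 0. In HFD+ASBTi 1 the sum was 9.32, with Adipoq, Lep, Retn, Plin1 and Adig at 0. By limma, Cfd and Cidec were called higher in HFD against chow, and Adrb3 in HFD+ASBTi against chow. The part of fat tissue RNA in the Scd2 values was not tested. In whole liver, more cells of a type and more RNA per cell cannot be told apart.

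Elovl3 (NM_007703), which elongates saturated and monounsaturated chains and is known in mouse liver for a daily rhythm, ran the other way from the rest of the family. It was at 7.93, 8.53, 9.77 and 3.28 RPKM in HFD libraries 1 to 4 and at 19.5, 18.7, 34.8 and 22.7 RPKM in chow libraries 1, 2, C7 and 4. All HFD libraries were below all chow libraries. The mean was 3.24-fold lower in HFD (7.38 ± 2.84 RPKM) than in chow (23.9 ± 7.44 RPKM), with a log2 fold change of -1.68 (SE 0.56, 95% confidence interval -2.92 to -0.45), which did not pass the adjusted threshold (limma adjusted p = 0.0735). Without chow C7 it was -1.49 (limma adjusted p = 0.162). The shared estimate of spread included the HFD+ASBTi libraries, where Elovl3 was at 31.9, 29.5, 5.96 and 5.84 RPKM. HFD+ASBTi 1 and 2 were thus within the chow range and above every HFD library, and libraries 3 and 4 were within the HFD range, with nothing between.

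The Elovl3 results turned on those 2 libraries. With only the HFD and chow libraries in the fit, Elovl3 was called lower in HFD (limma adjusted p = 0.0169), as it was with all but HFD+ASBTi 1 and 2 in the fit (0.0106), on the RPM scale (0.0483) and with library weights (0.0357). Against HFD the log2 fold change in HFD+ASBTi was 0.94 (95% confidence interval -0.30 to 2.17, limma adjusted p = 0.640), and without HFD+ASBTi 1 and 2 it turned to -0.20. Against chow it was -0.74 in HFD+ASBTi (95% confidence interval -1.98 to 0.49, limma adjusted p = 0.474), and without the same libraries it was -1.89 and called (adjusted p = 0.0341). The adjusted p was 0.0604 without chow C7 as well. The fits without HFD+ASBTi 1 and 2 were added after the data had been seen, and those libraries were chosen by their clock genes. HFD+ASBTi 1 and 2 also hold the only Elovl3 values of their group within the chow range. Leaving them out was therefore bound to lower both HFD+ASBTi fold changes. The call against chow rests on HFD+ASBTi 3 and 4 and is not independent support. Elovl3 overlaps Pitx3 on the other strand, and Pitx3 was listed at 0 to 0.348 RPKM.

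Several clock genes separated HFD+ASBTi 1 and 2, which had been chosen by their clock genes, from HFD+ASBTi 3 and 4. Cry1 and Cry2 did not. Cry1 was at 0.933, 1.86, 3.90 and 0.869 RPM in HFD+ASBTi libraries 1 to 4, and Cry2 at 26.0, 31.7, 30.8 and 27.4 RPM. Per3, a repressor of the clock, was at 13.9, 11.01, 64.8 and 45.7 RPM in HFD+ASBTi libraries 1 to 4, at 37.2 to 56.5 RPM in HFD and at 7.84 to 25.1 RPM in chow, lowest in chow C7. Per1, another repressor, was at 5.78, 8.07, 43.8 and 28.8 RPM in HFD+ASBTi libraries 1 to 4, at 14.0 to 26.4 RPM in HFD and at 26.9 to 34.3 RPM in chow. Nr1d1, which represses Arntl, was at 100.5, 94.97, 44.9 and 49.0 RPM in HFD+ASBTi libraries 1 to 4, at 37.5 to 63.7 RPM in HFD and at 48.5 to 52.6 RPM in chow. HFD+ASBTi 1 and 2 lay outside the range of the other 10 libraries for Per1 and Nr1d1, and inside the chow range for Per3 and Arntl. Of 8 tested clock genes, 2 were called higher in HFD against chow (Dbp, with an adjusted p of 0.00563 by limma, and Per2, with 0.0137). In HFD+ASBTi against chow 1 was called higher (Dbp, limma adjusted p = 0.0413). Over all tested genes, 7.65% and 4.74% were called higher in these comparisons. In HFD+ASBTi against HFD 0 clock genes were called, and 0 had an unadjusted limma p under 0.05, against 9.26% of all tested genes. The time of day at which each liver was taken is not given in the sources used here, and the part of the clock in the values of Elovl3 and the other members was not tested.

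**Figure D4:**
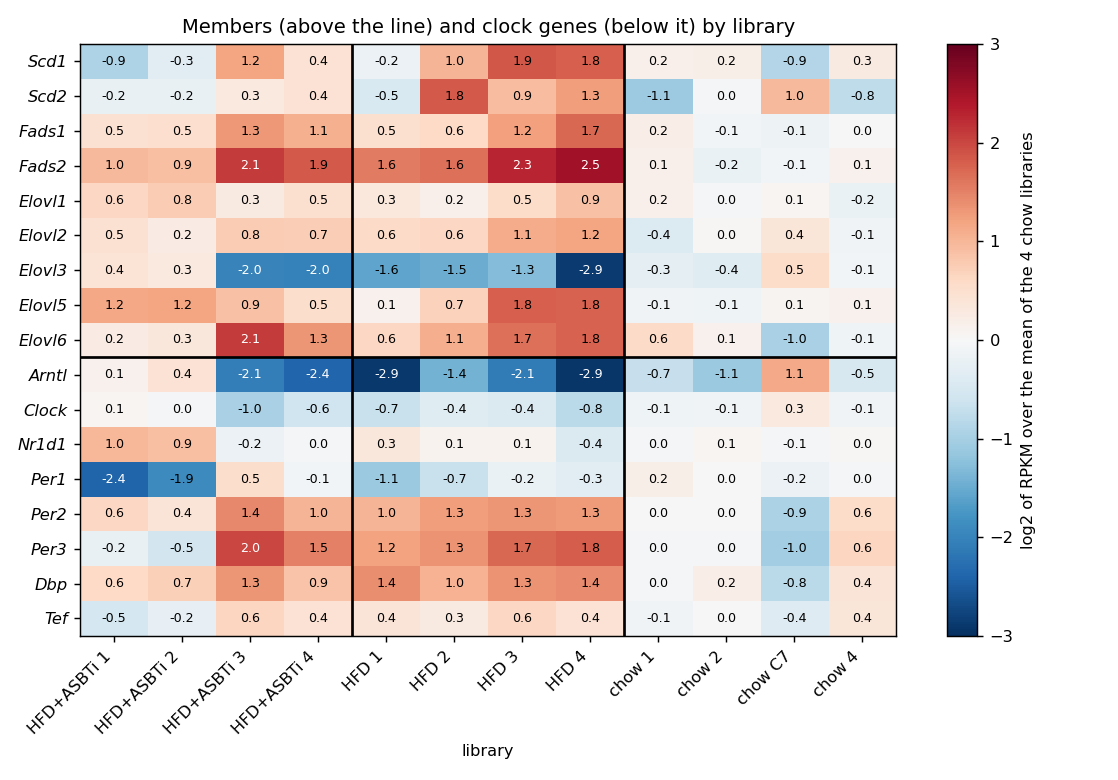
Log2 of each library's RPKM over the mean of the 4 chow libraries, for the 9 members above the line and 8 clock genes below it; libraries run from HFD+ASBTi through HFD to chow. HFD+ASBTi 1 and 2 stand near the chow libraries in Elovl3, Arntl and Per3 (0.42 and 0.30 for Elovl3), and HFD+ASBTi 3 and 4 stand near the HFD libraries (-2.003 and -2.03).

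Tested genes outside the 9 members were ranked by likeness to a member, as the root mean square difference of centred log2(RPKM + 0.5) over the 12 libraries. The other members were left out of this ranking. The genes most like Elovl3 were Insig2 (0.53), Slc45a3 (0.55) and Sco2 (0.56), against 1.03 for Elovl3 set beside a flat line. Insig2, which holds SREBP precursors in the endoplasmic reticulum, was at 5.46, 6.07, 1.03 and 1.09 RPKM in HFD+ASBTi libraries 1 to 4. It was at 1.67, 3.06, 2.86 and 2.20 RPKM in HFD and at 4.00, 4.57, 6.16 and 3.91 RPKM in chow, with the same 2 HFD+ASBTi libraries high. The genes most like Scd1 were Per3 (0.51), Mknk2 (0.52) and Scd4 (0.52), against 0.89 for a flat line. Those most like Fads2 included Aacs, which activates acetoacetate for lipid synthesis (0.33), and Sc5d, an enzyme of cholesterol synthesis (0.34), against 0.78 for a flat line. Sc5d was at 14.9, 14.9, 25.4 and 24.0 RPKM in HFD+ASBTi, 17.9, 14.0, 24.9 and 24.2 RPKM in HFD and 10.7, 9.17, 8.85 and 12.4 RPKM in chow.

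Elovl6 (NM_130450), which lengthens palmitate to stearate and so feeds Scd1, was under the filter on the RPKM scale, where its genomic span is 17.8 times its spliced length, and was tested alone by an exact permutation test. It was at 0.290, 0.397, 0.592 and 0.635 RPKM in HFD libraries 1 to 4 and at 0.278, 0.205, 0.0946 and 0.171 RPKM in chow libraries 1, 2, C7 and 4. Every HFD library was above every chow library, though HFD 1 was only just above chow 1. The mean was 2.56-fold higher in HFD (0.478 ± 0.163 RPKM) than in chow (0.187 ± 0.0763 RPKM; exact two-sided permutation p = 0.0286, the smallest that 4 against 4 allows, and 0.0857 when adjusted over the 3 comparisons). On the RPM scale it entered the fit and was called (log2 fold change 1.36, limma adjusted p = 0.0432), and on the RPKM scale with no filter on low values it was not (0.50, limma adjusted p = 0.185). Without chow C7 the log2 fold change was 0.43 (exact two-sided permutation p = 0.0571, the smallest possible there). In HFD+ASBTi, Elovl6 was at 0.221, 0.238, 0.802 and 0.467 RPKM, with libraries 1 and 2 inside the chow range and library 3 above every HFD library. The exact two-sided permutation p was 0.114 against chow and 0.800 against HFD (0.171 and 0.800 when adjusted over the 3 comparisons). Without HFD+ASBTi 1 and 2 the log2 fold change was 0.71 against chow and 0.21 against HFD (exact two-sided permutation p = 0.133 and 0.400).

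Elovl1 (NM_001039176), which makes saturated and monounsaturated very long chains for sphingolipids, differed little in size. It was at 4.65, 5.05, 3.63 and 4.21 RPKM in HFD+ASBTi libraries 1 to 4, at 3.75, 3.34, 4.39 and 5.55 RPKM in HFD and at 3.34, 2.94, 3.11 and 2.62 RPKM in chow libraries 1, 2, C7 and 4. Both HFD+ASBTi and HFD lay above chow without overlap, though HFD 2 (3.339 RPKM) was barely above chow 1 (3.338 RPKM). The log2 fold change was 0.42 in HFD against chow (95% confidence interval 0.12 to 0.73, limma adjusted p = 0.0700) and 0.48 in HFD+ASBTi against chow (0.17 to 0.78, limma adjusted p = 0.0672). The first was called without HFD 2 (adjusted p = 0.0466) and the second without HFD 4 (0.0310). Elovl1 overlaps Cdc20 on the other strand, and Cdc20 was at 0 in all HFD+ASBTi libraries and at most 0.136 RPKM elsewhere.

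Counted by overlap alone, 5 of the 9 members lay higher in HFD than in chow without overlap (Fads1, Fads2, Elovl1, Elovl2 and Elovl6) and 1 lay lower (Elovl3). Among all tested genes, which do not include Elovl6, 12.4% lay higher without overlap and 8.89% lower. Set against chow, 4 members lay higher in HFD+ASBTi without overlap (Fads1, Fads2, Elovl1 and Elovl5) and 0 lower, against 10.2% and 5.53% of all tested genes.

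SC-435 on top of the diet gave 0 called members among the 8 tested. Of all tested genes, limma called 0.0949% (6 of 6325) between HFD+ASBTi and HFD, 0.0316% higher and 0.0632% lower in HFD+ASBTi, and 0 of the 8 members had an unadjusted p under 0.05, against 9.26% of all tested genes. No member separated the groups without overlap, against 2.32% of tested genes that lay higher and 1.64% that lay lower without overlap. The log2 fold change of Scd1 was -1.04 (95% confidence interval -2.19 to 0.12, limma adjusted p = 0.594), that of Fads2 was -0.48 (-1.05 to 0.09, adjusted p = 0.605) and that of Scd2 was -0.43 (-0.92 to 0.06, adjusted p = 0.596). That of Elovl2 was -0.30 (-0.70 to 0.11, adjusted p = 0.651). Fads1 (-0.18, interval -0.77 to 0.41), Elovl5 (-0.15, -0.78 to 0.48) and Elovl1 (0.05, -0.26 to 0.36) were closer to 0. The interval of every tested member includes 0, and those of Scd1 and Elovl3 also include changes of more than 4-fold. These libraries therefore do not settle whether the drug changed any of the tested members. Without HFD+ASBTi 1 and 2 the log2 fold change of Scd1 was -0.32 and that of Fads2 was -0.02.

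Libraries of 1 group differed from each other in the same way for several members. HFD 1 was the lowest HFD library for 7 of the 9 members, HFD 4 was the highest for 5 and HFD 3 for 3. HFD+ASBTi 3 was the highest of its group for 5 members (Scd1, Fads1, Fads2, Elovl2 and Elovl6) and HFD+ASBTi 1 the lowest for 4. Markers of bile duct cells summed to 10.1 and 10.8 RPKM in HFD 3 and 4, against 3.67 and 4.27 RPKM in HFD 1 and 2. They summed to 3.49 to 6.09 RPKM in HFD+ASBTi and 3.52 to 4.22 RPKM in chow, with 4 to 6 of the 6 markers above 0 in every library. Nearly all of the excess in HFD 3 and 4 was Spp1, at 9.73 and 10.1 RPKM. Hepatocyte markers summed to 4915 RPKM in HFD 4, against 3153 to 3197 RPKM in HFD 1 to 3 and at most 3533 RPKM in HFD+ASBTi and chow. The part of these cells in the values was not tested.

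The desaturases and elongases outside the 9 members showed 1 marked change. Fads3, a relative of Fads1 and Fads2 in the same cluster, was at 1.36, 1.55, 5.57 and 7.64 RPKM in HFD and at 0.518, 0.403, 0.340 and 0.704 RPKM in chow. It rose 8.20-fold in HFD, with HFD 3 and 4 far above HFD 1 and 2 (log2 fold change 1.92, 95% confidence interval 0.90 to 2.93, limma adjusted p = 0.0221). It was at 1.23, 1.13, 3.501 and 1.70 RPKM in HFD+ASBTi and was not called there against chow (adjusted p = 0.149). Fads6, a desaturase-like gene, rose 1.67-fold in HFD+ASBTi against chow (1.62 ± 0.212 RPKM in HFD+ASBTi and 0.966 ± 0.0435 in chow, limma adjusted p = 0.0280). Of the 4 tested genes of this list, 1 was called higher in HFD against chow and 1 in HFD+ASBTi against chow, against 7.65% and 4.74% of all tested genes. In HFD+ASBTi against HFD 0 were called and 0 had an unadjusted limma p under 0.05, against 9.26% of all tested genes.

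Few partners of the enzymes were called. Of 6 tested genes for the other steps of elongation and for the electron donors, 1 was called higher in HFD against chow. This was Hsd17b12, a reductase of the elongation cycle (1.33-fold, limma adjusted p = 0.0440). Cyb5b, a cytochrome b5 of the outer mitochondrial membrane, was called higher in HFD+ASBTi against chow (1.49-fold, limma adjusted p = 0.0417). Limma called 0 of the 6 between HFD+ASBTi and HFD. An unadjusted p under 0.05 was reached by 4 of the 6 in HFD against chow, 1 in HFD+ASBTi against HFD and 3 in HFD+ASBTi against chow, where 28.7%, 9.26% and 23.3% of all tested genes reached it. Of 7 tested enzymes that make the saturated chains, 0 were called by limma in any comparison, and 1 had an unadjusted p under 0.05, in HFD+ASBTi against chow. Fasn, the fatty acid synthase, was at 5.13, 4.84, 24.98 and 11.7 RPKM in HFD+ASBTi, 8.56, 7.16, 12.5 and 11.98 RPKM in HFD and 7.61, 4.98, 2.53 and 5.75 RPKM in chow (limma adjusted p = 0.217 in HFD against chow, 0.983 in HFD+ASBTi against HFD and 0.301 in HFD+ASBTi against chow). As for Scd1 and Elovl6, the highest HFD+ASBTi library was 3 and the lowest chow library was C7.

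Among 11 tested regulators, 2 rose and 2 fell in HFD against chow, and 1 rose and 1 fell in HFD+ASBTi against chow. Limma called 0 of them between HFD+ASBTi and HFD, where 6 had an unadjusted p under 0.05, against 9.26% of all tested genes. Over all tested genes, limma called 7.65% higher and 4.46% lower in HFD against chow. In HFD+ASBTi against chow it called 4.74% higher and 2.31% lower. Srebf1 was at 3.66, 3.04, 8.14 and 4.93 RPKM in HFD+ASBTi, 10.3, 9.75, 9.73 and 9.79 RPKM in HFD and 1.59, 1.89, 1.56 and 1.46 RPKM in chow. The HFD libraries were nearly equal, unlike those of Scd1, and all HFD+ASBTi libraries lay between the other groups. Its log2 fold change was 2.30 in HFD against chow (limma adjusted p = 1.80e-04), 1.28 in HFD+ASBTi against chow (adjusted p = 0.00886) and -1.02 in HFD+ASBTi against HFD, where it was not called (adjusted p = 0.232). Ppara, the receptor that drives fatty acid oxidation, rose 1.64-fold in HFD against chow (limma adjusted p = 0.00805). Hnf4a, a hepatocyte transcription factor, fell to 11.3 ± 1.60 RPKM in HFD and 13.3 ± 0.921 RPKM in HFD+ASBTi, against 19.2 ± 1.08 RPKM in chow (limma adjusted p = 0.00126 and 0.0155). Srebf2, which drives cholesterol synthesis, fell to 0.360 ± 0.0769 RPKM in HFD, against 0.567 ± 0.102 RPKM in chow (limma adjusted p = 0.0431). Insig1 and Mlxipl, which encodes ChREBP, were not called in any comparison (adjusted p 0.148 to 0.924).

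Some genes for steps after desaturation and elongation were also called in HFD against chow, where 12.1% of all tested genes were. Peroxisomes shorten very long chains, including the last step towards docosahexaenoate. Of 10 tested peroxisomal genes, 3 rose in HFD against chow, among them Acaa1b (2.07-fold) and Scp2 (1.49-fold; limma adjusted p = 0.0111 and 0.0126). Limma called 0 between HFD+ASBTi and HFD and 0 between HFD+ASBTi and chow, where 2 and 6 had an unadjusted p under 0.05. Of 6 tested genes that activate polyunsaturated chains or place them in phospholipids, 2 rose in HFD against chow. Lpcat3, which puts arachidonate into phosphatidylcholine, rose 1.56-fold and Acsl5 1.66-fold (limma adjusted p = 0.00859 and 0.0102). Limma called 0 of these genes between HFD+ASBTi and HFD and 0 between HFD+ASBTi and chow, where 0 and 3 had an unadjusted p under 0.05. Over all tested genes, 9.26% and 23.3% reached it in these comparisons.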

How the data were processed

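The deposited table holds RPKM for 33763 transcripts in 12 libraries, made by the authors. The submitters' processing notes name Bowtie 0.12.7 and the build mm9; no counter or strand setting is named, so antisense overlaps cannot be told apart. Per the labels' protocols, the library kit was Illumina TruSeq RNA. Low values showed which length lay behind RPKM: taking the genomic span, 78.1% to 80.7% of them came to whole read numbers (tolerance 0.05), and taking the spliced length 11.3% to 12.1% did. Read numbers and values per spliced kilobase rest on those GENCODE vM21 lengths (GRCm38) and are estimates. The deposited chow column headed C7 matches its group but no single label, and is called chow C7.

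All 12 libraries entered 1 limma 3.58.1 model (R 4.3.3, mean-variance trend) on log2(RPKM + 0.5), which leaves 9 residual degrees of freedom. Folds are ratios of mean RPKM, while each log2 fold change carries the added 0.5 and so understates changes of low genes. The model was run on simulated data with independent noise for each gene, to check that planted fold changes were recovered. That check does not cover differences shared across many genes of a library. Tables and plots used Python 3.11.15, pandas 2.3.3, numpy 2.4.6, scipy 1.17.1 and matplotlib 3.10.9. Same-numbered HFD+ASBTi and HFD libraries correlated at 0.0691, 0.0408, 0.0551 and 0.0411 in their deviations from group means. Pairs with different numbers correlated at -0.109 to 0.117. These values show no strong pairing by replicate number but cannot exclude a weak one, and the main model used no pairing. The members and gene lists were chosen with earlier results of these data known. Named genes are all 9 members, up to 4 called genes per list and comparison, Srebf1, Fasn, Insig1 and Mlxipl. They also include the 3 genes outside the members most like each of the 3 members with the widest range of group means. Marker lists and clock genes were set beside the members, and Scd4, Sc5d and Insig2 values were added after they were seen. Some genes that the rule names are not reported here. Alternatives were other pseudocounts, filters, scalings, weights, fits and left-out libraries.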

Additional observations from a re-analysis of the deposited data

Results flagged for a closer look

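Of 27 groups of 4 values (9 members in 3 groups), 1 held a library far from the other 3. Scd1 was at 93.6 RPKM in chow C7, against 193 to 208 RPKM in the other chow libraries, and the gap made up 0.861 of the range of the group, above Dixon's critical value for 4 samples. Chance alone flags about 1 in 20 groups. Chow C7 was also the chow library with the highest Arntl (6.25 RPM) and the lowest Per3 (7.84 RPM), and whether these belong together was not tested.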

How the results depend on the processing

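Across alternatives, Fads2 and Elovl2 stayed called in HFD against chow, and 0 members were called in HFD+ASBTi against HFD. With library weights 1592 genes and 7 members were called in HFD against chow, and on the RPM scale 1295 genes and 6 members (Fads1, Fads2, Elovl2, Elovl3, Elovl5 and Elovl6), against 766 genes and 3 members. Between HFD+ASBTi and HFD the 6 called genes became 2 with a pseudocount of 1 or no trend, 0 with no filter, 1 with a mean of at least 1 RPKM, 3 with the 2 groups alone, 16 with weights and 0 without HFD+ASBTi 1 and 2, with or without chow C7. With the replicate number as a block, fitted for this comparison alone, there were 3 genes and 0 members. For HFD+ASBTi against chow, the 1 called member became 0 with no filter, 3 with the 2 groups alone or weights, and 2 without HFD+ASBTi 1 and 2. The 446 genes became 1031 with weights, 730 on the RPM scale, 256 without HFD+ASBTi 1 and 2, and 128 without chow C7 as well. Leaving out each library gave 458 to 864 genes and 2 to 5 members in HFD against chow, 0 to 9 genes and 0 members in HFD+ASBTi against HFD, and 142 to 521 genes and 0 to 3 members in HFD+ASBTi against chow. Counts of genes fell by more than 1.5 times without HFD 2, HFD 3, chow 1 or chow 2 in HFD against chow, without HFD+ASBTi 1, HFD+ASBTi 2 or any chow library in HFD+ASBTi against chow, and without any library but HFD+ASBTi 3, chow 1 or chow C7 between HFD+ASBTi and HFD; 5 members were called in HFD against chow without HFD 1. Centring on the median or quantile normalization lowered the share of calls that were higher to 51.9% and 52.6% in HFD against chow (63.2% without), and to 46.7% and 48.3% in HFD+ASBTi against chow (67.3% without). Between HFD+ASBTi and HFD it left 0 higher calls of 4.

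Small log2 fold changes turned sign. In HFD+ASBTi against HFD, left-out libraries gave -0.35 to 0.053 for Fads1 (0.053 without HFD 4), -0.43 to 0.052 for Elovl5 and -0.27 to 0.012 for Elovl6. Fads1 became 0.17 without HFD+ASBTi 1 and 2, Elovl1 became -0.013 without HFD+ASBTi 2, -0.044 without HFD 2 and -0.087 without HFD+ASBTi 1 and 2, and Elovl3 became -0.20. Elovl5 became 0.052 without HFD 3 and 0.045 without HFD 4, and Elovl6 became 0.012, 0.00032 and 0.21 without HFD+ASBTi 1, 2 and both. Leaving out chow C7 as well gave the same values, since chow libraries do not enter the difference between HFD+ASBTi and HFD. In HFD+ASBTi against chow, left-out libraries gave -0.21 to 0.49 for Scd1 and -0.031 to 0.22 for Scd2. Scd1 became -0.37 with weights, -0.21 without HFD+ASBTi 3 and -0.12 without chow C7, and Scd2 became -0.031 and -0.0049 without chow 1 and chow 4. The cause was not tested. Depth limits Scd2, with 20 to 145 estimated reads, and intervals cover no error of the length estimate.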
